A study of Mus musculus with 27 samples.

Results

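The mRNAs of 54 genes that remove poly(A) tails, take off caps and degrade RNA were followed through 27 libraries from RAW264.7 cells. The genes were taken by symbol from a list of deadenylases, decapping factors, exonucleases, exosome subunits and nonsense-mediated decay factors, and all 54 were found among the 55483 genes of the counts table. RAW264.7 is a mouse macrophage cell line. Its cells were kept for 6 h in DMSO alone, in LPS at 1 µg/ml with DMSO (LPS+DMSO), or in LPS at 1 µg/ml with TM7nox at 10 µM (LPS+TM7nox), with about 30 M cells per sample. LPS, a bacterial lipopolysaccharide, activates macrophages, and TM7nox is a tanshinone mimic, a class of small molecules made to interfere with RNA binding by the protein HuR. Every sample with TM7nox also had LPS, and DMSO was the vehicle of the other groups. Each treatment had 4 total RNA libraries, 4 libraries of RNA recovered with an anti-HuR antibody (RNA immunoprecipitation, or RIP) and 1 library of RNA recovered with control IgG, which was replicate 3 in each treatment.

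Library depth ran from 2.73 M to 41.4 M counts. The lowest was DMSO replicate 1 of total RNA, and counts of called genes are therefore also given without it. All 9 macrophage markers were above 1 CPM (library-size-scaled counts) in every total RNA group, with summed levels of 3610 to 7090 CPM, and 14 markers of fibroblasts, epithelium, lymphocytes, endothelium and red cells summed to 0.103 to 2.65 CPM. The labels do not say that replicates were separate cultures, so the p-values measure only the spread between these samples. In a whole-culture RNA measurement, fewer cells with an mRNA and less of it per cell cannot be told apart. The library kit keeps strand, but the strand setting of the counting is not given in the sources used here, so it is unknown whether reads of overlapping genes on opposite strands were separated.

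Most mRNAs are degraded in a fixed order. The poly(A) tail is shortened first, by PAN2-PAN3 and then by the CCR4-NOT complex, to which BTG and TOB proteins and poly(A)-binding proteins connect. The shortened mRNA is then either decapped by DCP2 with its activators and the LSM1-7 ring and digested from the 5′ end by XRN1, or degraded from the 3′ end by the exosome. Nonsense-mediated decay, led by UPF1 and its kinase SMG1, feeds faulty mRNAs into the same enzymes. In macrophages this machinery clears cytokine mRNAs with AU-rich elements, and HuR binds U-rich and AU-rich stretches in the 3′ untranslated region (UTR) of many of the same mRNAs.

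HuR recovery differed widely among these mRNAs, so the most U-rich 30-base stretch of the annotated 3′ UTR is shown for 3 of the 4 members with the highest and for the 4 with the lowest ratio of anti-HuR RIP to total RNA in DMSO. The bases are the sense DNA strand, 5′ to 3′, of the GRCm39 reference with GENCODE M39 transcripts, and capitals mark runs of at least 5 T.
Btg1: TTTTTTTgTTTTTTgTTTTTTTTTTTTTTT
Upf1: TTTTTTTTTTcTTTTTTTTggTTTTTTTTT
Pabpn1: ttttgttttgTTTTTTTctttaccTTTTTT
Exosc8: attgtatttgttacactgcacaggcTTTTT
Exosc9: cttcttgatacactgtttgtctttaacatt
Edc4: TTTTTacctataatttggatcTTTTTgttt
Exosc3: tttgttggtagtgtctatatttgtagttct
Among the best recovered mRNAs, the Pabpn1 stretch holds 24 T and lies at chr14:55136204-55136233 on the plus strand. The Btg1 stretch holds 28 T at chr10:96457214-96457243 on the plus strand, and that of Upf1 holds 27 T at chr8:70784631-70784660 on the minus strand. Among the least recovered, Exosc8 has 14 T at chr3:54636137-54636166 on the minus strand and Exosc9 has 15 T at chr3:36619736-36619765 on the plus strand. Edc4 has 19 T at chr8:106619763-106619792 on the plus strand, and Exosc3 has 17 T at chr4:45316598-45316627 on the minus strand.

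In untreated cells the members were present at very different levels. Per kilobase of annotated exon, Pabpc1, which encodes the main cytoplasmic poly(A)-binding protein, stood far above the rest at 229 ± 34.9 CPM per kb (SD, n = 4). Lsm5 followed at 21.7 ± 12.3, Pabpc4 at 18.6 ± 1.36, Upf1 at 18.4 ± 4.07 and Btg1 at 17.8 ± 3.28 CPM per kb, and these 4 did not differ beyond their spread. Lowest were Dcp1b at 0.475 ± 0.211 and Pabpn1 at 0.458 ± 0.165 CPM per kb, again within each other's spread, with Pan2 next at 0.910 ± 0.346. Under LPS+DMSO and under LPS+TM7nox Pabpc1 was again first and Btg1 second, at 35.5 ± 5.80 and 34.3 ± 2.96 CPM per kb. The 54 members together made up 0.583% of raw counts in DMSO, 0.552% in LPS+DMSO and 0.562% in LPS+TM7nox total RNA. On the TMM scale the direction was the other. The summed level was 3269 to 4097 CPM in DMSO, 3992 to 4875 CPM in LPS+DMSO and 4223.5 to 4940 CPM in LPS+TM7nox. Pabpc1 alone gave 1210 to 1749 CPM of the DMSO sums, so they say little about the other members.

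The comparison of LPS+DMSO with DMSO asks how activation changed the mRNAs of the decay machinery, and it did so in both directions. The members that rose were 3 anti-proliferative BTG/TOB mRNAs, 4 decapping factors, 3 CCR4-NOT subunits and both XRN exonucleases, while the exosome was the group with most members that fell. By edgeR's quasi-likelihood test with Benjamini-Hochberg adjustment over all 12369 genes tested (FDR under 0.05), 12 of the 54 members rose (22.2%) and 15 fell (27.8%). Over all genes tested 20.2% rose and 21.7% fell, so the members' shares were near that background. Their median log2 fold change was -0.08, against -0.04 over all genes, and without DMSO replicate 1 there were 31 members called in place of 27. These counts come from a fit without the replicate number. With that number as a block 52.4% of all genes were called. Members called with the block but not without it included Cnot1, Cnot6, Cnot8, Pabpc1, Smg1, Upf3b and Exosc3. The 4 libraries of each group did not overlap for 24 members (44.4%), against 38.7% of all genes tested.

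**Figure D1:**
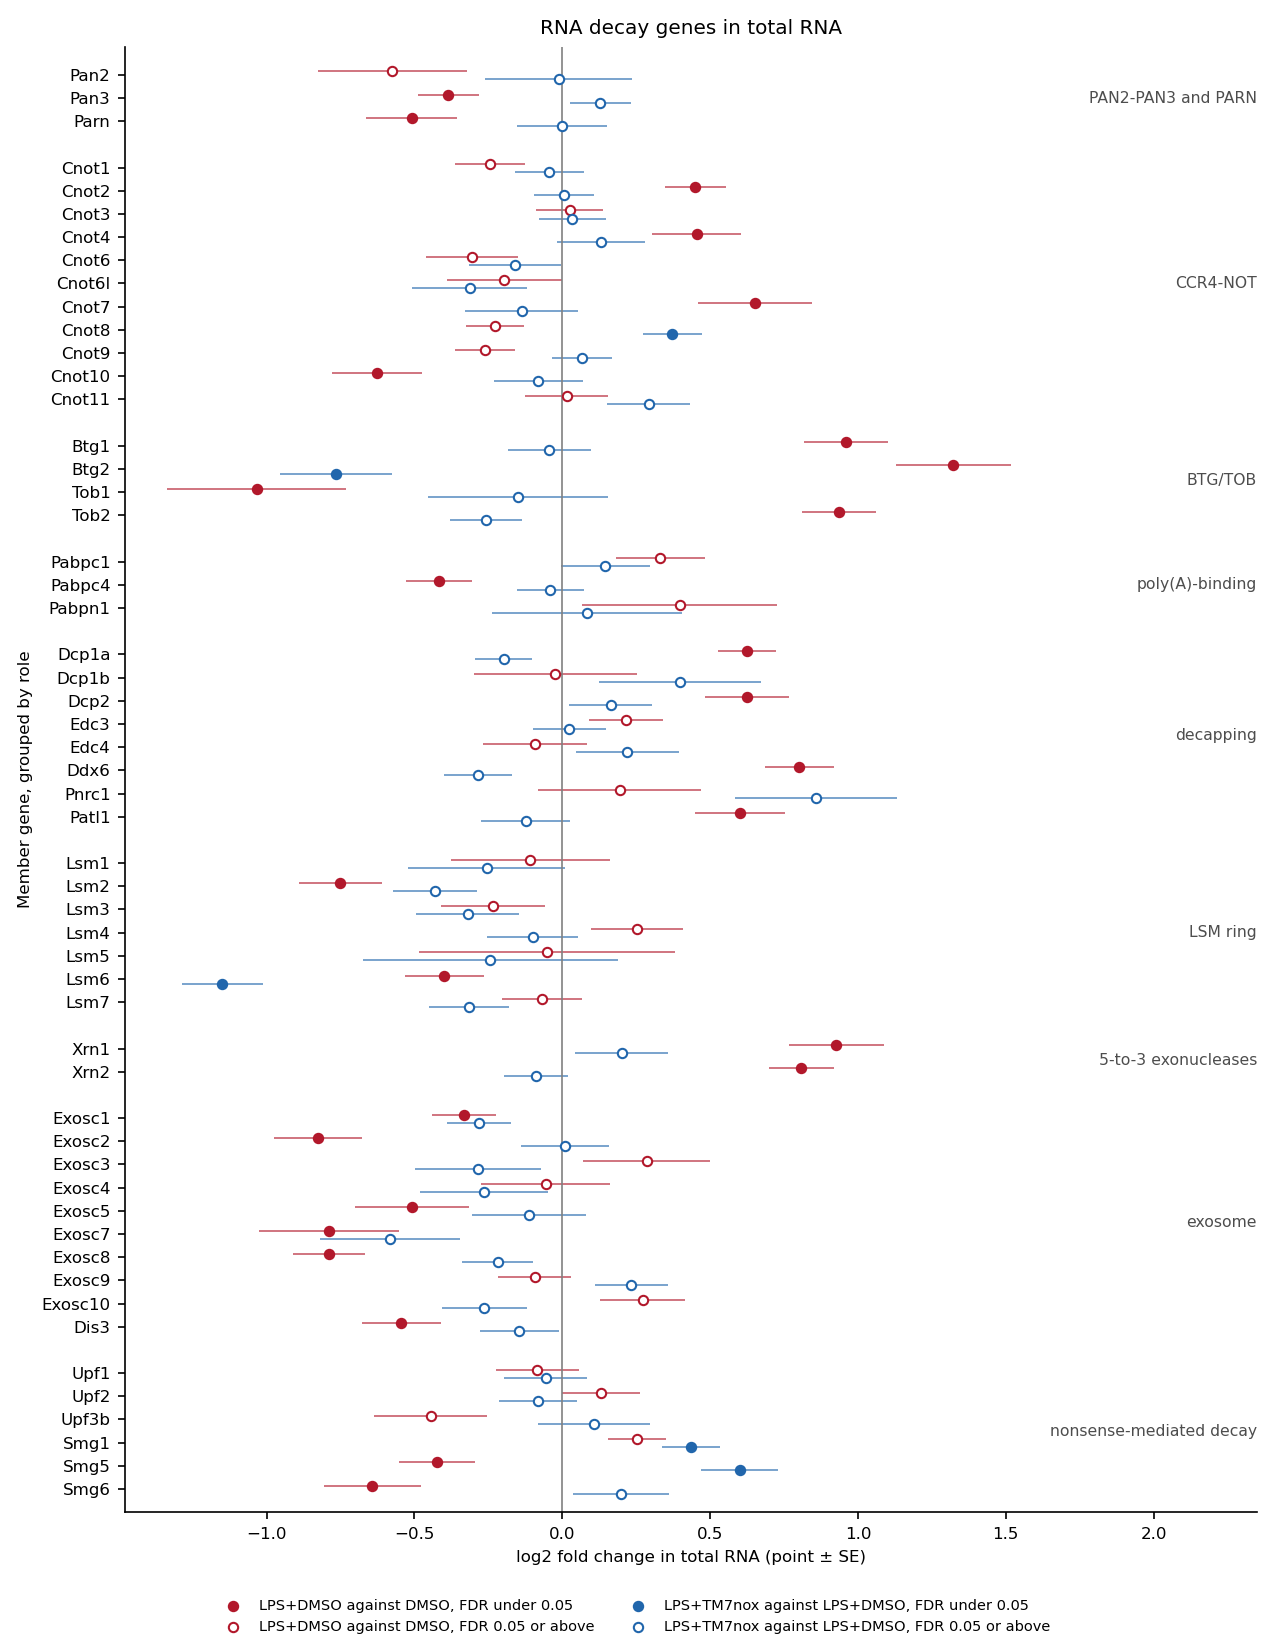
Each row is 1 member gene, grouped by role. The x axis is the log2 fold change in total RNA with its SE, red for LPS+DMSO against DMSO and blue for LPS+TM7nox against LPS+DMSO (4 libraries a group), and filled points have an FDR under 0.05. Red points spread from -1.03 (Tob1) to 1.32 (Btg2), while only 5 blue points are filled, from -1.15 (Lsm6) to 0.60 (Smg5).

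Among the BTG/TOB adaptors, which bring CCR4-NOT to poly(A)-binding proteins and restrain cell growth, 3 of 4 rose and 1 fell. These are 75% and 25%, against 20.2% and 21.7% of all genes. Btg2 read 6.57, 9.47, 13.0 and 11 CPM in the DMSO libraries and 25.3, 22.3, 28.3 and 28.7 CPM under LPS+DMSO. The lowest LPS value was above the highest DMSO value, a 2.5-fold rise (log2 1.32 ± 0.19 SE, FDR 8.46e-05). Btg1 read 73.8, 116, 89.9 and 97.5 CPM in DMSO and 143, 214, 195 and 197 CPM under LPS+DMSO, a rise of 0.96 ± 0.14 on the log2 scale (FDR 8.98e-05). Tob2 was steady at 41.1 to 44.4 CPM in DMSO and reached 75.9, 84.5, 94.1 and 82.6 CPM under LPS+DMSO (log2 0.94 ± 0.12, FDR 3.52e-05). In each of these genes the groups were fully separated. Tob1, a close relative of Tob2, went the other way. It read 4.24, 7.80, 7.82 and 9.47 CPM in DMSO and 2.14, 3.26, 4.98 and 4.52 CPM under LPS+DMSO, a 2.05-fold fall (log2 -1.03 ± 0.30, FDR 0.0132). The Tob1 groups overlapped through the shallow DMSO replicate 1, and without it the log2 value was -1.17 (FDR 0.00492). In the GRCm39 annotation Btg2 (ENSMUSG00000020423) lies on the minus strand at chr1:134002908-134015033 and Btg1 (ENSMUSG00000036478) on the plus strand at chr10:96452861-96458671. Of exon bases there, 26.3% of those of Tob2 and 14.3% of those of Btg2 are shared with a gene on the opposite strand, and none of those of Btg1 or Tob1.

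Decapping factors rose in 4 of 8 cases (50%, against 20.2% of all genes) and none fell (against 21.7%). Ddx6, the helicase that stimulates decapping and represses translation, read 59.6, 89.6, 86.6 and 85.4 CPM in DMSO and 131, 147, 150 and 144 CPM under LPS+DMSO (log2 0.80 ± 0.12, FDR 7.6e-05). Dcp2, the decapping enzyme itself, read 40.1, 47.5, 51.8 and 49.8 CPM against 73.5, 71.2, 77.3 and 76.5 CPM (log2 0.62 ± 0.14, FDR 0.00273). Both sets of libraries were fully apart. Dcp1a, the partner of DCP2, rose by 0.62 ± 0.10 (FDR 0.000144) and Patl1, which links deadenylation to decapping, by 0.60 ± 0.15 (FDR 0.00543). Pnrc1, whose product interacts with the decapping complex, read 8.05, 20.5, 21.3 and 28.8 CPM against 14, 23.7, 28.1 and 28.2 CPM and was not called (log2 0.19 ± 0.28, FDR 0.612). Its lowest value in each group was replicate 1.

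The exonucleases that digest decapped RNA from its 5′ end rose together. Xrn1, the cytoplasmic enzyme, read 22.9, 32.9, 30.1 and 30.5 CPM in DMSO and 46.1, 62.5, 62.6 and 56.3 CPM under LPS+DMSO (log2 0.93 ± 0.16, FDR 0.000324). Xrn2, the nuclear enzyme that also ends transcription, read 108, 91.2, 97.0 and 90.2 CPM against 166, 159, 185 and 184 CPM (log2 0.81 ± 0.11, FDR 4.32e-05). Neither gene had overlapping groups.

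**Figure D2:**
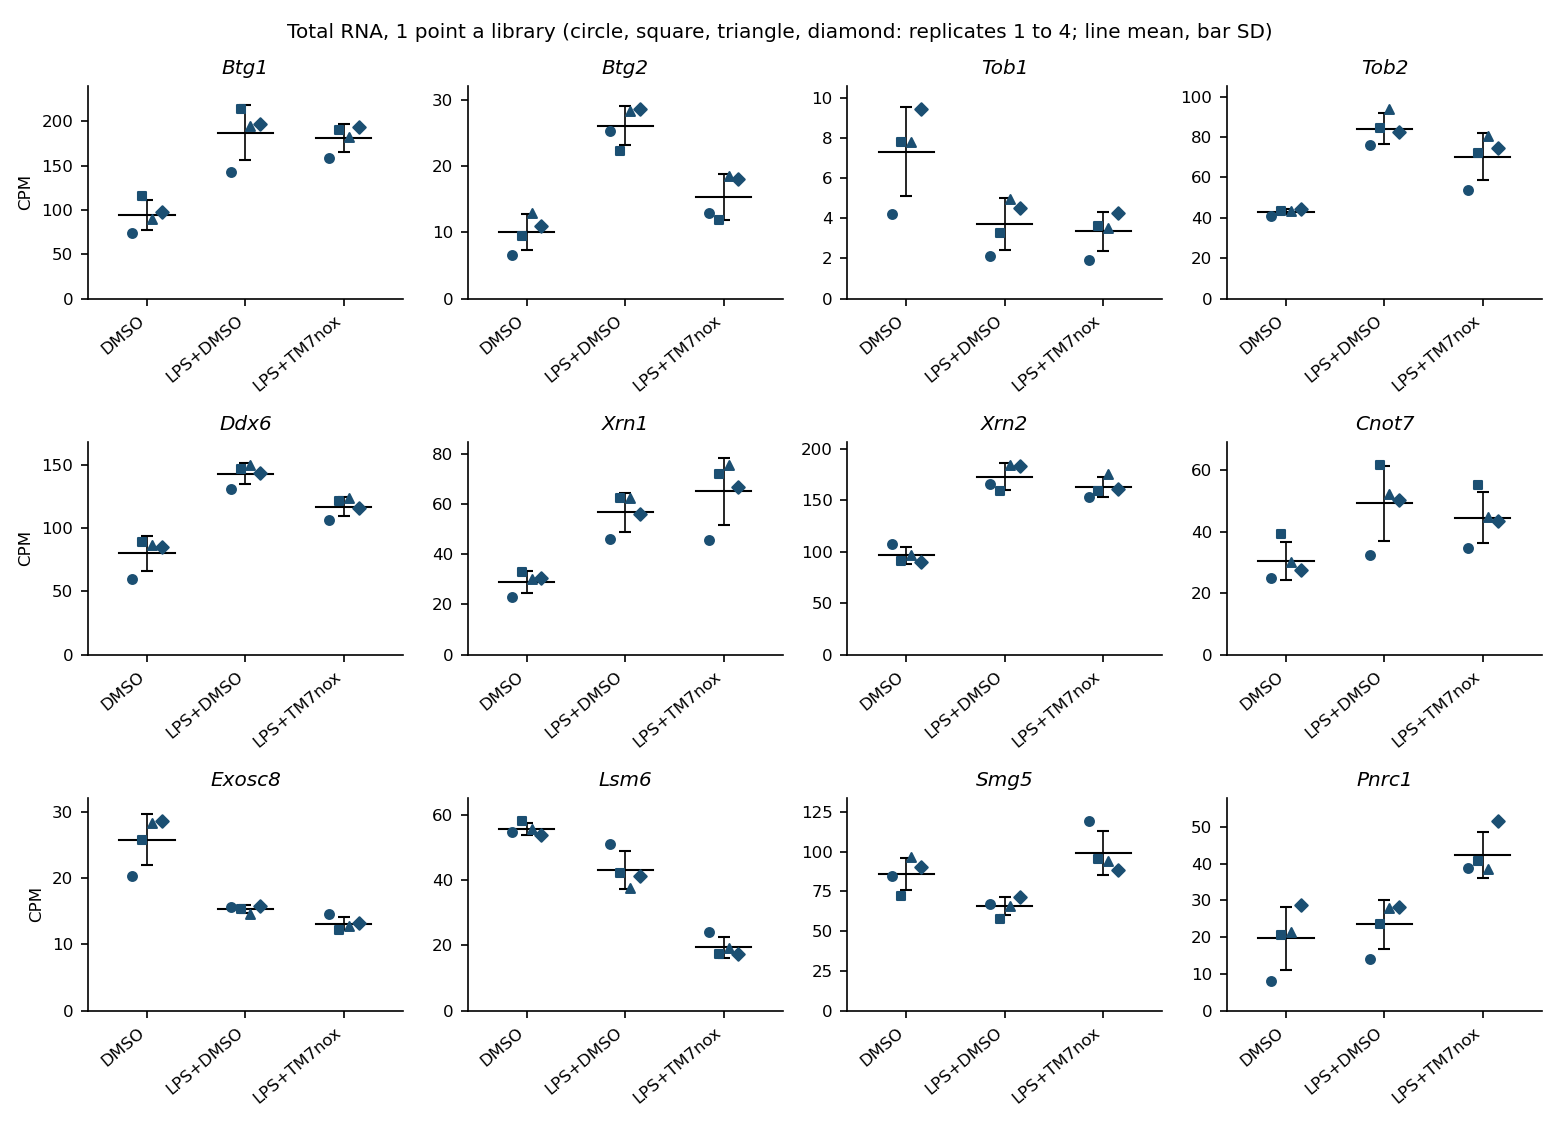
Total RNA levels of 12 members in CPM on linear axes that start at 0, with 1 point a library, marker shapes for replicates 1 to 4, a line at the mean and a bar of 1 SD. Btg1, Btg2, Tob2, Ddx6, Xrn1 and Xrn2 are higher in every LPS+DMSO library than in any DMSO library, and Lsm6 is lowest in the 4 LPS+TM7nox libraries, at 17.3 to 24 CPM.

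Of 10 exosome mRNAs 6 fell (60%, against 21.7% of all genes) and 4 were not called. The median log2 fold change of the 10 was -0.42. With the replicate block Exosc3 was called higher (log2 0.29, FDR 0.0348). Exosc2, a cap subunit of the exosome, read 31.4, 25.6, 21.7 and 27.2 CPM in DMSO and 16.1, 14.9, 14.1 and 15.5 CPM under LPS+DMSO, a 1.77-fold fall without overlap (log2 -0.83 ± 0.15, FDR 0.000491). The ring subunits Exosc8 (log2 -0.79 ± 0.12, FDR 0.000122) and Exosc7 (log2 -0.79 ± 0.24, FDR 0.0148) fell by similar amounts. Dis3, the catalytic subunit, read 32.9, 57.2, 52.7 and 51.9 CPM against 34.2, 35.3, 31.2 and 36.0 CPM (log2 -0.54 ± 0.13, FDR 0.0045). Its groups overlapped only through DMSO replicate 1. Exosc5, another ring subunit, fell by 0.51 (SE 0.19, FDR 0.0487) and Exosc1, a cap subunit, by 0.33 (SE 0.11, FDR 0.0238). The Exosc5 call was lost without any 1 of the 8 libraries other than DMSO replicate 1 (FDR 0.0652 to 0.129). Exosc1 was lost without DMSO replicate 3 (FDR 0.0856), LPS+DMSO replicate 2 (FDR 0.0579) or LPS+DMSO replicate 4 (FDR 0.0685). Opposite-strand genes share 26.1% of Exosc2 exon bases and 30.1% of those of Exosc5 in the annotation. Exosc10, the nuclear catalytic subunit, read 34.1, 54.0, 57.8 and 62.7 CPM against 64.9, 63.9, 61.3 and 68.3 CPM and was not called (log2 0.27 ± 0.14, FDR 0.149).

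Deadenylase mRNAs changed in both directions. Of 11 CCR4-NOT genes, 3 rose (27.3%) and 1 fell (9.09%), and of PAN2-PAN3 and PARN, 2 of 3 fell (66.7%). Over all genes tested 20.2% rose and 21.7% fell. Cnot7, a catalytic subunit, read 25, 39.1, 30.1 and 27.6 CPM in DMSO and 32.3, 61.7, 52.3 and 50.4 CPM under LPS+DMSO, with 1 LPS library inside the DMSO range (log2 0.65 ± 0.19, FDR 0.0144). Without LPS+DMSO replicate 2 its FDR was 0.0521, and 31.8% of its exon bases are shared with opposite-strand genes. Cnot2, part of the module that holds the complex to its targets, rose by 0.45 ± 0.10 (FDR 0.00259). Cnot4, a ubiquitin ligase, rose by 0.46 ± 0.15 (FDR 0.0252), but 5 of the 8 fits without 1 library lost that call, with an FDR of up to 0.0837 (without DMSO replicate 4). Cnot10 fell by 0.63 on the log2 scale (SE 0.15, FDR 0.00428).

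Of the other catalytic and scaffold deadenylase mRNAs, Parn passed the test, and Cnot1, Cnot6 and Cnot8 passed it with the replicate number as a block and without DMSO replicate 1, but not with all libraries and no block. Cnot1, the scaffold, read 144, 184, 199 and 190 CPM in DMSO and 137, 161, 162 and 160 CPM under LPS+DMSO (log2 -0.24 ± 0.12, FDR 0.111). Cnot6 read 57.4, 83.8, 88.5 and 75.6 CPM against 48.3, 74.0, 68.5 and 62.1 CPM (log2 -0.31 ± 0.16, FDR 0.133). In both genes replicate 1 was the lowest of each group, and with the replicate number as a block the FDR was 0.0139 for Cnot1 and 0.00393 for Cnot6. Without DMSO replicate 1 it was 0.0335 and 0.0481. Cnot8, the close paralogue of Cnot7, read 39.0, 48.1, 47.2 and 47.5 CPM against 36.0, 39.0, 43.0 and 41.1 CPM (log2 -0.23 ± 0.10, FDR 0.0826, with the block 0.0333, without DMSO replicate 1 0.0342). Cnot6l read 34.6, 53.6, 44.0 and 40.6 CPM against 31.7, 48.9, 38.0 and 36.1 CPM (log2 -0.20 ± 0.20, FDR 0.463). Its groups overlapped. Parn, a separate poly(A) exonuclease, read 18.9, 13.8, 14.6 and 17 CPM against 10.7, 10.8, 12.9 and 11.3 CPM and fell (log2 -0.51 ± 0.15, FDR 0.0155). Pan2, the catalytic subunit of its complex, read 12.7, 6.00, 6.31 and 7.69 CPM against 6.20, 5.71, 4.91 and 4.93 CPM and was not called (log2 -0.57 ± 0.25, FDR 0.0836, without DMSO replicate 2 0.0474). Its partner Pan3 fell by 0.38 (SE 0.10, FDR 0.0078).

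Poly(A)-binding proteins, the LSM ring and nonsense-mediated decay had 5 members that fell. None rose with all libraries and no block, but Lsm1 was higher without DMSO replicate 1 (log2 0.34, FDR 0.0286, against -0.11 with it, FDR 0.784) and Smg1 with the block (FDR 0.0168) or without DMSO replicate 3 (FDR 0.038). Pabpc1 read 1210, 1594, 1749 and 1652 CPM in DMSO and 1588, 2015, 2285 and 2088 CPM under LPS+DMSO, with overlapping groups (log2 0.33 ± 0.15, FDR 0.0942). The block brought its FDR to 0.00545, and leaving out LPS+DMSO replicate 1 to 0.0405. Pabpc4 fell by 0.42 (SE 0.11, FDR 0.008). Of 7 LSM mRNAs, whose products form the ring that binds shortened tails, Lsm2 fell by 0.75 (SE 0.14, FDR 0.000671) and Lsm6 by 0.40 (SE 0.13, FDR 0.0272), and none rose. The 2 that fell are 28.6% of the 7, against 21.7% of all genes. The Lsm6 call was lost in 5 of the 8 fits without 1 library, at an FDR of up to 0.0912 without LPS+DMSO replicate 3. Upf1, the central helicase of nonsense-mediated decay, read 62.7, 95.6, 99.1 and 110 CPM against 99.3, 81.5, 79.3 and 93.7 CPM (log2 -0.08 ± 0.14, FDR 0.67). Of that group's 6 mRNAs 2 fell (33.3%, against 21.7% of all genes). Smg6, the endonuclease, fell by 0.64 (SE 0.17, FDR 0.00608) and Smg5, an adaptor, by 0.42 (SE 0.13, FDR 0.0169). Upf3b, which joins UPF1 to exon junctions, was not called with all libraries (log2 -0.45, FDR 0.076), but it was lower with the block (FDR 0.000959), in replicates 3 and 4 alone (FDR 0.00272), without DMSO replicate 3 (FDR 0.0463) or without LPS+DMSO replicate 1 (FDR 0.0309). The Smg5 call was lost without DMSO replicate 3 (FDR 0.0578) or LPS+DMSO replicate 2 (FDR 0.057).

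The comparison of LPS+TM7nox with LPS+DMSO asks what the compound changed in activated cells. In total RNA 3 members were higher with TM7nox (Smg5, Smg1 and Cnot8) and 2 lower (Lsm6 and Btg2), or 5.56% and 3.70% of the 54, against 7.37% higher and 6.40% lower over all genes tested. The members' shares lay below that background, and their median log2 difference was -0.07 against -0.00 over all genes. With the replicate number as a block 12 members (22.2%) were called, against 25% of all genes under the same block. The 7 added were Cnot6l, Cnot11, Ddx6, Pnrc1, Lsm2, Exosc1 and Exosc7.

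Lsm6, on the minus strand at chr8:79456724-79547869, had the largest difference. It read 54.9, 58.3, 55.7 and 54.0 CPM in DMSO, 51.2, 42.4, 37.7 and 41.3 CPM under LPS+DMSO, and 24, 17.4, 19.1 and 17.3 CPM under LPS+TM7nox. The 3 groups followed each other without overlap, and the level with TM7nox was 2.22-fold lower than with LPS+DMSO (log2 -1.15 ± 0.14, FDR 9.6e-05). Btg2, which LPS had raised, read 12.9, 11.9, 18.5 and 18.1 CPM with TM7nox, below every LPS+DMSO library (1.70-fold lower, log2 -0.76 ± 0.19, FDR 0.0151). All 4 of those values lay within or above the DMSO range of 6.57 to 13.0 CPM. Against DMSO, Btg2 was still higher (log2 0.56 ± 0.19, FDR 0.0281), a call that was lost without DMSO replicate 1 (FDR 0.0542) or 2 (FDR 0.0751) or LPS+TM7nox replicate 3 (FDR 0.0919) or 4 (FDR 0.0858).

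Among the 3 members that were higher with TM7nox, 2 act in nonsense-mediated decay. Smg5 read 66.7, 57.9, 66.0 and 71.7 CPM under LPS+DMSO and 119, 95.1, 94.1 and 88.2 CPM with TM7nox (log2 0.60 ± 0.13, FDR 0.00678). The latter were close to the DMSO values of 84.8, 72.2, 96.3 and 90.4 CPM, and the difference from DMSO was not called (log2 0.18 ± 0.13, FDR 0.284). Smg1, the kinase that phosphorylates UPF1, read 142, 151, 172 and 155 CPM in DMSO, 177, 194, 193 and 192 CPM under LPS+DMSO and 239, 278, 250 and 254 CPM with TM7nox, in steps without overlap (LPS+DMSO against DMSO log2 0.25 ± 0.10, FDR 0.0505, with the block 0.0168, and TM7nox against LPS+DMSO log2 0.43 ± 0.10, FDR 0.00884). Cnot8 read 52.9, 47.1, 53.5 and 51.8 CPM with TM7nox, above the 4 LPS+DMSO libraries (log2 0.37 ± 0.10, FDR 0.0224). That call was lost without LPS+DMSO replicate 1, 2 or 4 or LPS+TM7nox replicate 3 or 4, at an FDR of 0.057 to 0.0722. Smg5 lies on the plus strand at chr3:88243555-88269646 and Smg1 on the minus strand at chr7:117730527-117842893. In the annotation 16% of Smg5 exon bases and 10.4% of Cnot8 exon bases are shared with genes on the opposite strand.

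Pnrc1 read 38.8, 40.7, 38.5 and 51.7 CPM with TM7nox, above all LPS+DMSO libraries, yet its spread kept it just outside the threshold (log2 0.86 ± 0.27, FDR 0.0531). With the replicate block the log2 value was 0.90 (FDR 0.00204), and against DMSO it was called (log2 1.05 ± 0.28, FDR 0.00627). Ddx6 read 107, 122, 124 and 116 CPM with TM7nox, below all LPS+DMSO libraries (log2 -0.29 ± 0.12, FDR 0.126, with the block 0.0189). Lsm2, in the same ring as Lsm6, was also separated, at 17, 18.2, 12.8 and 16.6 CPM against 23.3, 24.1, 20.2 and 19.3 CPM (log2 -0.43 ± 0.14, FDR 0.0605, with the block 0.0204). Cnot6l read 20.4, 41.1, 31.6 and 30.9 CPM with TM7nox (log2 -0.31 ± 0.20, FDR 0.346, with the block 0.0241).

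The remaining defining members did not differ between LPS+TM7nox and LPS+DMSO beyond the threshold. Btg1 read 159, 191, 182 and 193 CPM with TM7nox (log2 -0.04 ± 0.14, FDR 0.889) and Xrn2 read 153, 160, 176 and 162 CPM (log2 -0.09 ± 0.11, FDR 0.68). Tob2 read 53.7, 72.3, 80.6 and 74.8 CPM (log2 -0.26 ± 0.12, FDR 0.201). Tob1 at 1.94, 3.63, 3.51 and 4.29 CPM overlapped the LPS+DMSO libraries (log2 -0.15 ± 0.30, FDR 0.817). The core enzymes of both decay directions were in the same position. Xrn1 read 45.9, 72, 75.8 and 66.9 CPM (log2 0.20 ± 0.16, FDR 0.47), Dcp2 58.3, 84.4, 96.6 and 94.6 CPM (log2 0.16 ± 0.14, FDR 0.517) and Dis3 29.9, 31.6, 31.5 and 30.5 CPM (log2 -0.14 ± 0.13, FDR 0.553). Exosc10 read 53.5, 47.4, 59.7 and 54.2 CPM, below each LPS+DMSO library but not called (log2 -0.26 ± 0.14, FDR 0.274). Exosc2 read 17.5, 16.7, 12.7 and 14.1 CPM (log2 0.01 ± 0.15, FDR 0.979), and Upf1 88.5, 87.8, 80.6 and 82.8 CPM (log2 -0.06 ± 0.14, FDR 0.854). Pabpc1 at 1857, 2353, 2276 and 2314 CPM overlapped its LPS+DMSO levels (log2 0.15 ± 0.15, FDR 0.606). Among deadenylases, Cnot1 read 126, 158, 162 and 154 CPM (log2 -0.04 ± 0.12, FDR 0.864), Cnot6 44.8, 61.9, 61.7 and 57.2 CPM (log2 -0.16 ± 0.16, FDR 0.575) and Cnot7 34.7, 55.1, 44.7 and 43.6 CPM (log2 -0.14 ± 0.19, FDR 0.721). Parn at 9.52, 13.2, 10.9 and 12.1 CPM and Pan2 at 4.03, 5.40, 6.46 and 5.61 CPM also overlapped their LPS+DMSO levels (FDR 0.998 and 0.984).

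Against DMSO, LPS+TM7nox had 15 members higher and 17 lower in total RNA, or 27.8% and 31.5%, with 23.7% and 23.6% over all genes. Without DMSO replicate 1, 31 members were called in place of 32. This comparison shares the DMSO libraries with the LPS comparison and the LPS+TM7nox libraries with the compound comparison, so it is no separate evidence. Lsm6 (log2 -1.55 ± 0.14, FDR 6.87e-07) and Exosc7 were furthest below DMSO. Exosc7 read 26.3, 17.4, 15.2 and 20.8 CPM in DMSO, 17.4, 9.38, 10.2 and 9.73 CPM under LPS+DMSO and 9.52, 6.75, 6.93 and 7.99 CPM with TM7nox (against DMSO log2 -1.37 ± 0.24, FDR 0.000308). Its LPS+DMSO replicate 1 stood in the DMSO range, and TM7nox against LPS+DMSO was called only with the replicate block (log2 -0.58 ± 0.24, FDR 0.129, with the block 0.00947). Tob1 and Lsm2 were each lower by 1.18 on the log2 scale (FDR 0.00548 and 1.22e-05), and Xrn1 had the largest rise (log2 1.13 ± 0.16, FDR 5.05e-05).

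HuR recovery was then read as RIP over total RNA within each treatment. In DMSO, 27 members were higher in RIP than in RNA (50%) and 19 lower (35.2%), against 37.0% and 33.4% over all genes tested. For LPS+DMSO the members' counts were 24 and 19 (44.4% and 35.2%, against 32.9% and 30.8%), and for LPS+TM7nox they were 25 and 20 (46.3% and 37.0%, against 35.2% and 34.8%). Without DMSO replicate 1 of total RNA, 45 members were called in DMSO in place of 46. A set of 24 members was higher in all 3 treatments, a set of 19 was lower in all 3, and none was called in both directions. These are 44.4% and 35.2% of the members, against 30.1% and 27.0% of all genes. The scale is relative to the typical gene, since TMM sets the libraries against each other and measures no absolute amount. For the CPM values the TMM factors were 0.938 to 0.988 in DMSO RIP and 0.554 to 0.660 in LPS+DMSO RIP. The members' share of raw counts was 1.28% in DMSO RIP, 0.975% in LPS+DMSO RIP and 1.10% in LPS+TM7nox RIP, above the share in total RNA. The IgG libraries, with 0.689%, 0.750% and 0.722%, lay between the RNA and RIP shares. On the TMM scale the summed RIP level was instead lowest in DMSO, with overlap. It was 10850 to 15759 CPM in DMSO, 13263 to 18306 CPM in LPS+DMSO and 16230 to 22103 CPM in LPS+TM7nox.

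**Figure D3:**
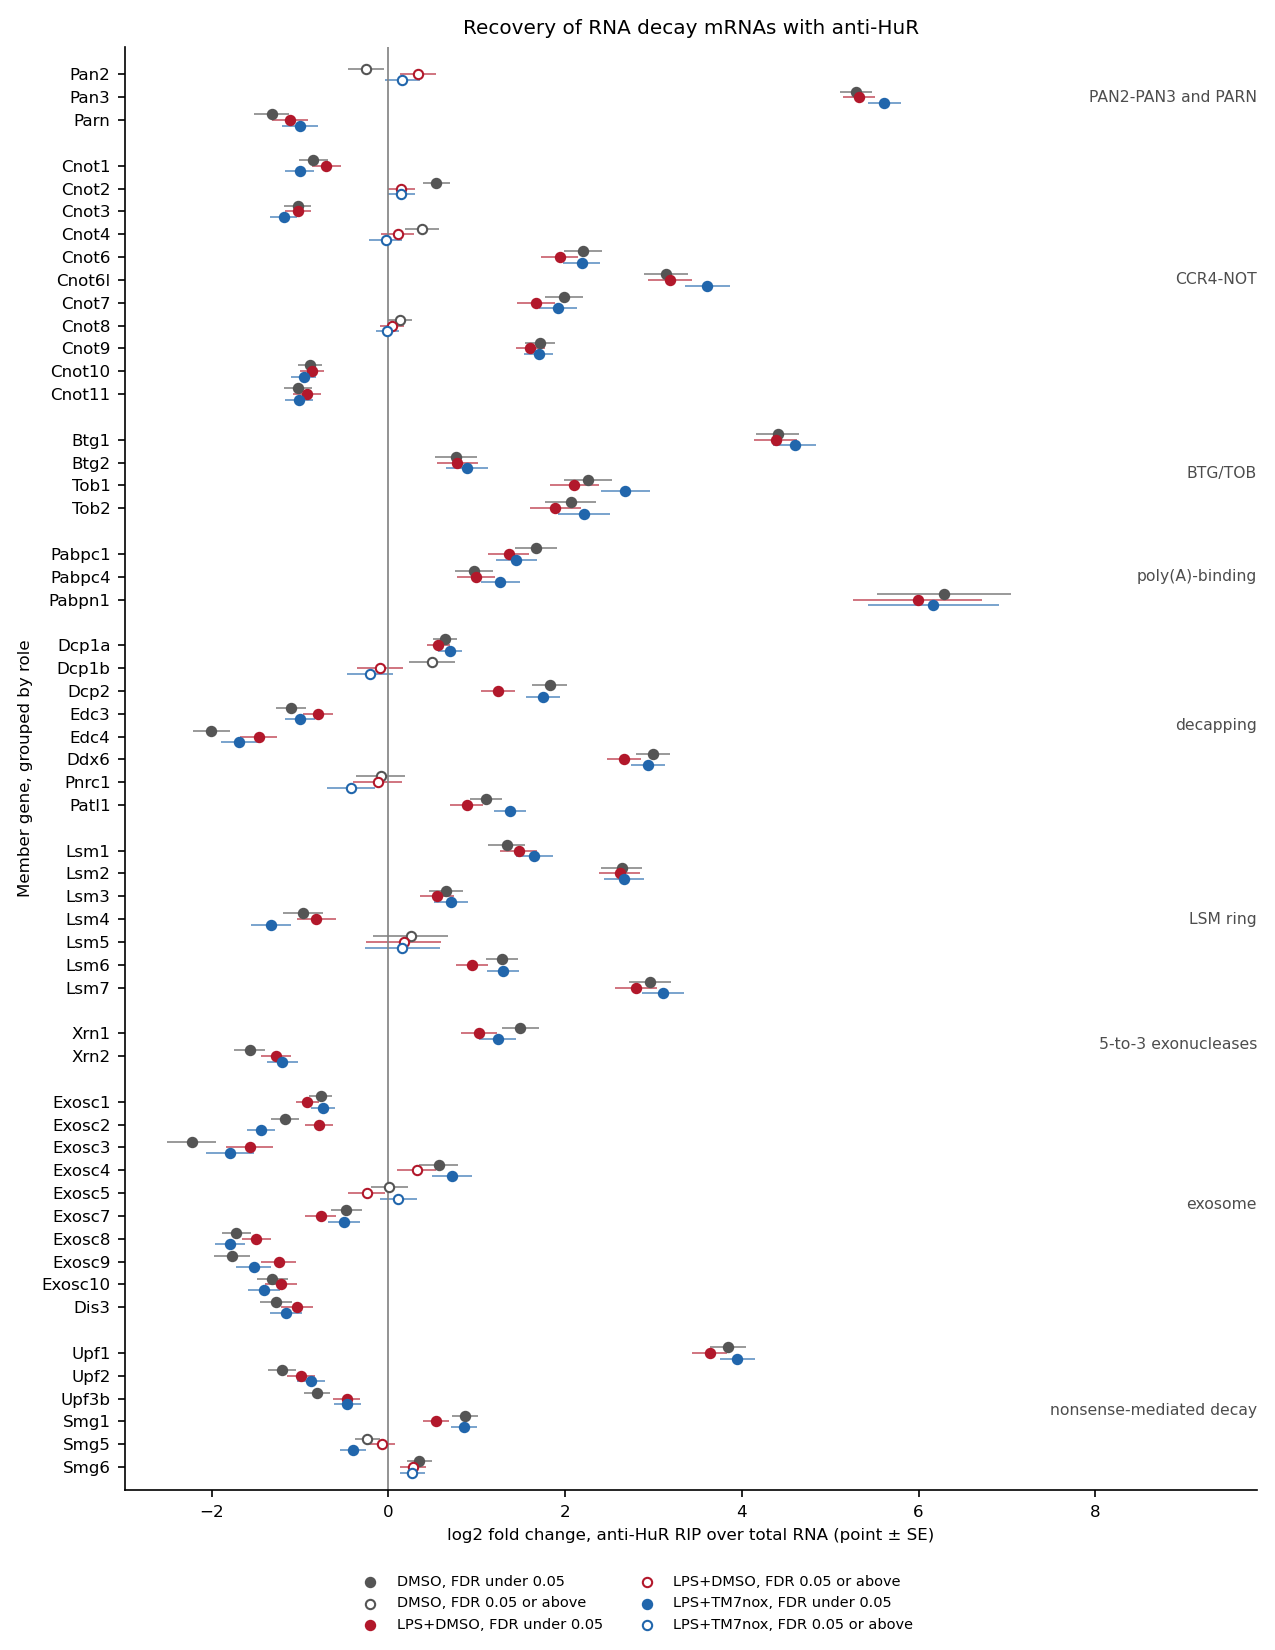
Rows are the members grouped by role. The x axis is the log2 fold change of anti-HuR RIP over total RNA with its SE in DMSO (grey), LPS+DMSO (red) and LPS+TM7nox (blue), 4 libraries of each kind a treatment, and filled points have an FDR under 0.05. Pabpn1, Pan3, Btg1 and Upf1 lie furthest right, between 3.64 and 6.28, and 8 of the 10 exosome genes lie left of 0 in DMSO.

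Recovery followed role groups unevenly. In DMSO all 4 BTG/TOB mRNAs and all 3 poly(A)-binding protein mRNAs were higher in RIP, with median log2 values of 2.16 and 1.67. Over all genes 37.0% were higher and 33.4% lower. The LSM ring had 5 higher and 1 lower of 7 (71.4% and 14.3%). CCR4-NOT had 5 higher and 4 lower of 11 (45.5% and 36.4%), near the shares over all genes. The exosome was the reverse, with 1 higher and 8 lower of 10 (10% and 80%) and a median of -1.22, while the median over all genes was 0.04. The 1 higher was Exosc4, whose call was lost without DMSO replicate 1 of total RNA (log2 0.40, FDR 0.0897). Subunits of 1 complex could lie far apart: in DMSO Cnot6l was at 3.14 ± 0.25 and Cnot3 at -1.03, and Upf1 was at 3.84 and Upf3b at -0.81.

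The most strongly recovered mRNAs were those of Pan3, Btg1 and Upf1, beside Pabpn1. Pan3, the regulatory subunit of PAN2-PAN3, read 44.1, 48.2, 51.3 and 43.7 CPM in DMSO total RNA and 1492, 1712, 1876 and 1731 CPM in DMSO RIP, a 39.3-fold difference (log2 5.30 ± 0.18, FDR 5.15e-17). IgG recovered 52.8, 44.9 and 46.2 CPM of it in DMSO, LPS+DMSO and LPS+TM7nox. In contrast Pan2, its catalytic partner, was not called in RIP over RNA in any treatment. Btg1 read 1453, 2146, 1860 and 1950 CPM in DMSO RIP, against at most 116 CPM in DMSO total RNA and 68.4 CPM in DMSO IgG (log2 over RNA 4.40 ± 0.24, FDR 3.48e-14). Upf1 read 1172, 1009, 1296 and 1451 CPM in DMSO RIP, against at most 110 CPM in RNA and 101 CPM in IgG (log2 over RNA 3.84 ± 0.20, FDR 1.25e-14). In these 3 genes no DMSO RIP library overlapped an RNA or IgG library. The order was the same after LPS. Pan3 read 1303, 1710, 1514 and 1336 CPM in LPS+DMSO RIP (log2 over RNA 5.32) and 1741, 2355, 1718 and 2177 CPM in LPS+TM7nox RIP (log2 over RNA 5.61). Upf1 read 1029, 1128, 1127 and 1097 CPM in LPS+DMSO RIP (log2 over RNA 3.64) and 1153, 1608, 1090 and 1463 CPM in LPS+TM7nox RIP (log2 over RNA 3.95).

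Pabpn1, a nuclear poly(A)-binding protein, had the largest ratio and the widest spread. It read 1.06, 2.32, 1.48 and 2.40 CPM in DMSO total RNA, where replicate 1 rests on 5 counts. In RIP it read 58.8, 71.5, 101 and 341 CPM in DMSO, 67.8, 60.5, 138 and 385 CPM in LPS+DMSO and 69.0, 113, 107 and 499 CPM in LPS+TM7nox, with replicate 4 highest in each. IgG gave 2.47, 2.05 and 3.79 CPM. The log2 value in DMSO was 6.28 ± 0.76 (FDR 6.66e-08) and was 5.37 without RIP replicate 4 (FDR 1.31e-07). The gene spans chr14:55129957-55136384, and 16.4% of its exon bases are shared with Gm20521 on the same strand. How reads there were counted, or whether they were left out, is not known, so its level and ratio are uncertain to that extent. The exosome gene Exosc6, with 100% of exon bases shared with Aars1 on the same strand, read 0 CPM in every library.

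**Figure D4:**
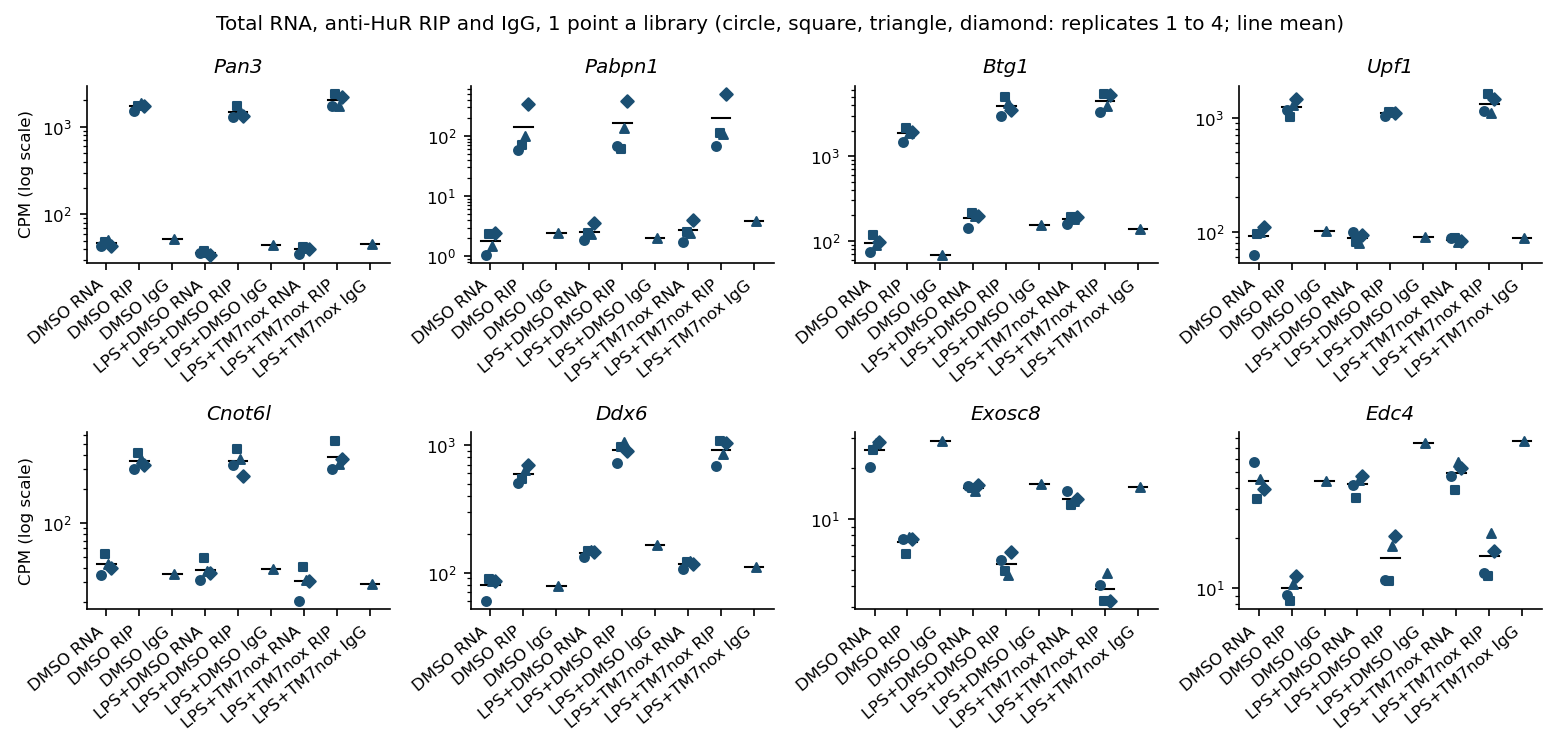
CPM on log axes for 8 members in total RNA, anti-HuR RIP and IgG of each treatment, with 1 point a library, marker shapes for replicates 1 to 4 and a line at the mean (IgG has 1 library a treatment). For Pan3, Pabpn1, Btg1, Upf1, Cnot6l and Ddx6 the RIP points lie above RNA and IgG in every treatment, and for Exosc8 and Edc4 they lie below.

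At the low end were Exosc3, Edc4, Exosc9, Exosc8 and Xrn2. Exosc3, a cap subunit of the exosome, read 34.3, 20.7, 26.1 and 24.4 CPM in DMSO total RNA and 6.81, 3.90, 5.55 and 4.17 CPM in DMSO RIP (4.68-fold lower, log2 -2.23 ± 0.28, FDR 1.06e-07). IgG gave 16.8 CPM in DMSO. Edc4, the scaffold of decapping, read 57.2, 34.6, 45.2 and 39.3 CPM in RNA and 9.14, 8.34, 10.7 and 11.9 CPM in RIP (4.01-fold lower, FDR 7.94e-09). Both were fully separated from total RNA. In the annotation 50.7% of Exosc3 exon bases are shared with genes on the opposite strand, and 16.6% of those of Edc4 with Nrn1l on the same strand.

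Against IgG, 26 members were higher in anti-HuR RIP (48.1%) and 22 lower (40.7%), with 33.8% and 34.2% over all genes tested. The fit used 12 RIP and 3 IgG libraries with treatment as a term. Of the 24 members above total RNA in all treatments, 23 were also above IgG, and all 19 below total RNA were below IgG. The exception was Smg1, with 320, 985 and 705 CPM in IgG and 231 to 290 CPM in DMSO RIP (log2 against IgG -1.03 ± 0.22, FDR 0.000316). Without the LPS+DMSO IgG library that value was -0.43 (FDR 0.0607). The Btg2 call was lost without any 1 of the IgG libraries (FDR 0.0769 to 0.138) and that of Xrn1 without DMSO IgG (FDR 0.195). The largest differences from IgG were those of Pabpn1 (log2 5.94 ± 0.89, FDR 7.45e-06), Pan3 (5.13 ± 0.23, FDR 4.48e-12), Btg1 (4.80 ± 0.27, FDR 3.09e-11) and Lsm2. Lsm2 read 236, 200, 205 and 187 CPM in DMSO RIP, 153, 169, 133 and 74.9 CPM in LPS+DMSO RIP and 110, 150, 82.7 and 72.7 CPM in LPS+TM7nox RIP, against 19.0, 7.67 and 6.88 CPM in IgG (log2 3.79 ± 0.29, FDR 1.31e-09).

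The U content of the richest 30-base stretch ran parallel to recovery. Over the 54 members Spearman's rho between that count and the log2 RIP over RNA in DMSO was 0.723, and over the 10996 genes with an annotated 3′ UTR of at least 50 bases it was 0.543. These are descriptions across genes that share libraries and base composition, and genes are not independent replicates. Of the 10 members with 24 or more U, 9 had a positive value, as had 84.4% of all genes in that class. Their median was 2.97, and the median over all genes in that class was 2.30. The 5 members with at most 14 U had a median of -1.17, against -1.02 over all genes in that class. The Pabpn1, Btg1 and Upf1 stretches printed above belong to the first class and that of Exosc8 to the last, while those of Exosc9, Exosc3 and Edc4, with 15, 17 and 19 U, lie between them. There were members off the line: Exosc1 had 24 U and a log2 value of -0.77, and Lsm6 had 16 U and 1.28.

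Other measures of the 3′ UTR went less closely with recovery. In DMSO rho over the members was 0.366 for 3′ UTR length, 0.239 for the U percentage, 0.434 for the number of ATTTA elements and 0.550 for the longest U run. Over all genes the same values were 0.37, 0.273, 0.359 and 0.484. The element ATTTA, searched on the sense strand with overlaps counted, occurred in 43 members (79.6%) and in the 3′ UTRs of 73.5% of all genes. A run of at least 10 T occurred in 24 members (44.4%) and in 23.1% of all genes. A match is only a run of letters and not a binding site.

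**Figure D5:**
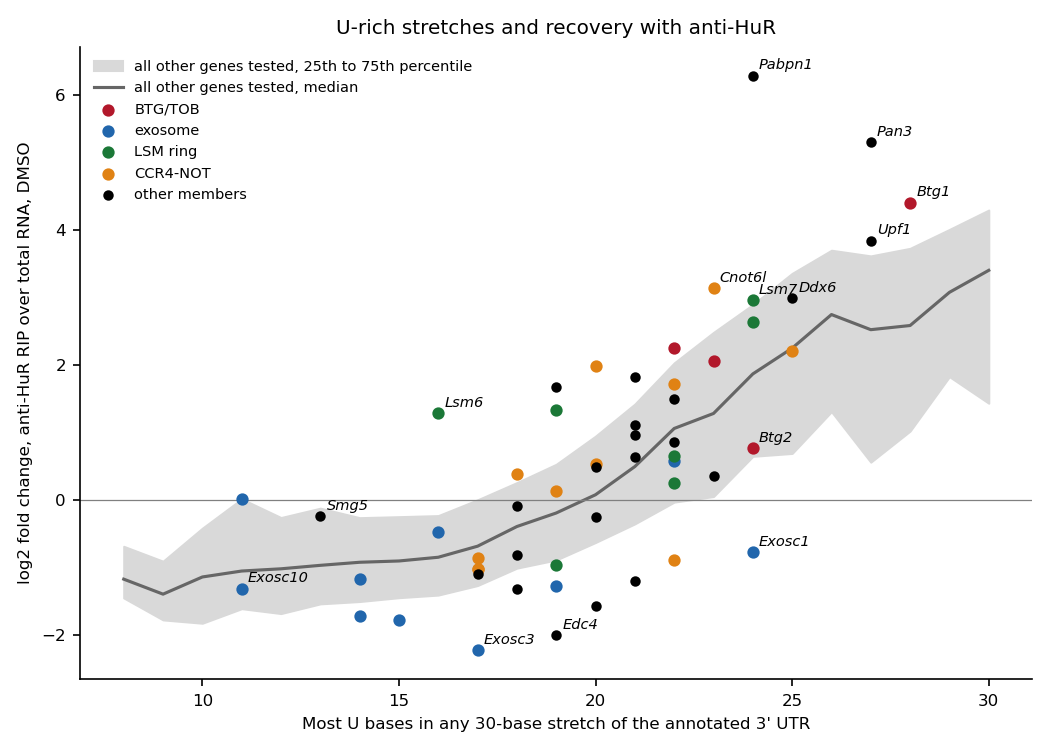
The x axis is the largest number of U in any 30-base stretch of the annotated 3′ UTR and the y axis the log2 fold change of anti-HuR RIP over total RNA in DMSO. Points are members coloured by role, the grey line is the median of all other genes tested and the band their 25th to 75th percentile. Members with 24 or more U have a median of 2.97, and those with at most 14 U a median of -1.17.

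Levels in anti-HuR RIP changed between treatments much as total RNA did. For LPS+DMSO against DMSO 12 members were higher and 7 lower in RIP, or 22.2% and 13.0%, against 23.5% and 21.2% over all genes. All 27 members called in RNA had the same sign in RIP, and 15 were called in both, which is 55.6% of the RNA calls and 78.9% of the RIP calls. Over all genes in both fits 96.5% of RNA calls had the same sign in RIP, and 75.6% of RNA calls and 70% of RIP calls were called in both. Across the 54 members the RNA and RIP fold changes had a Pearson r of 0.851, a description over genes whose RNA and RIP libraries carry the same replicate numbers. The count of called members fell to 10 (18.5%) without DMSO RIP replicate 3, where 39% of all genes were called, and to 10 without LPS+DMSO RIP replicate 3, where 36.6% were.

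Btg2 had the largest RIP rise. It read 10.5, 12.8, 21.9 and 20.3 CPM in DMSO RIP and 36.2, 39.9, 56.6 and 47.1 CPM in LPS+DMSO RIP (log2 1.44 ± 0.23, FDR 1e-04). Xrn2 read 28.2, 31.6, 33.2 and 26.3 CPM against 57.6, 55.3, 93.9 and 81.2 CPM (log2 1.25 ± 0.21, FDR 0.000203), though it stayed below its IgG levels of 107 and 241 CPM. Tob1 fell from 26.8, 29.3, 43.0 and 37.1 CPM to 13.8, 16.5, 19.5 and 14.8 CPM (log2 -1.09 ± 0.19, FDR 0.000186). These groups did not overlap. Exosc3 rose in RIP from 3.90 to 6.81 CPM in DMSO to 7.09 to 14.1 CPM in LPS+DMSO (log2 1.07 ± 0.31, FDR 0.0096). Its total RNA was called only with the replicate block (log2 0.29 ± 0.21, FDR 0.316, with the block 0.0348).

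For LPS+TM7nox against LPS+DMSO in RIP, Smg1 and Dcp2 were higher and Lsm6 and Exosc2 lower. These 2 and 2 of 54 members are 3.70% each way, against 8.64% and 7.61% over all genes. Lsm6 read 104, 75, 84.6 and 66.6 CPM in LPS+DMSO RIP and 66.4, 41.9, 43.4 and 41 CPM in LPS+TM7nox RIP (log2 -0.82 ± 0.22, FDR 0.0167). Smg1 read 255, 287, 293 and 266 CPM against 359, 560, 430 and 530 CPM (log2 0.73 ± 0.17, FDR 0.00967). Dcp2 read 172, 190, 173 and 169 CPM against 197, 329, 265 and 364 CPM (log2 0.67 ± 0.19, FDR 0.0259). Each of these pairs was separated, by little for Lsm6 and Dcp2. Exosc2 read 9.76, 7.99, 7.30 and 9.97 CPM against 7.01, 4.81, 5.67 and 5.13 CPM (log2 -0.67 ± 0.19, FDR 0.0216). With the replicate block 15 members (27.8%) were called, against 33.6% of all genes, and Btg2 was then lower with TM7nox in RIP as in RNA (log2 -0.66 ± 0.22, FDR 0.0556, with the block 0.000766). Without LPS+DMSO RIP replicate 1, or LPS+TM7nox RIP replicate 2 or 4, a single member, Smg1, was called, while 10.7%, 11.6% and 11.7% of all genes were. Dcp2 was also lost without LPS+DMSO RIP replicate 3 (FDR 0.0603) or 4 (FDR 0.0576), and Exosc2 without replicate 4 (FDR 0.067). Across members the RNA and RIP differences had a Pearson r of 0.665, and all 5 RNA calls had the same sign in RIP, as had 97.6% of the RNA calls over all genes.

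Against DMSO, LPS+TM7nox RIP had 13 members higher and 10 lower, or 24.1% and 18.5%, against 25.1% and 23.1% over all genes. Lsm6 (log2 -1.44 ± 0.22, FDR 5.96e-05) and Exosc7 (log2 -1.29 ± 0.16, FDR 6.47e-06) were lowest, as in total RNA. Exosc7 read 14, 11.2, 14.2 and 12.7 CPM in DMSO RIP and 4.88, 5.62, 6.11 and 5.67 CPM in LPS+TM7nox RIP. Xrn2 read 61.0, 56.8, 107 and 66.0 CPM with TM7nox (log2 1.21 ± 0.21, FDR 0.000226). Btg1 read 3341, 5410, 3910 and 5220 CPM with TM7nox (log2 1.21 ± 0.22, FDR 0.000361) and had read 2964, 4940, 4193 and 3552 CPM in LPS+DMSO RIP. All 4 genes were clear of their DMSO RIP ranges.

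Whether recovery by HuR itself changed was tested as an interaction, which asks if the RIP to RNA ratio differed between treatments. No member was called by edgeR for LPS+DMSO against DMSO, where 0.0419% of genes were called, and 2 had an unadjusted p under 0.05. No member was called for LPS+TM7nox against LPS+DMSO, where 0.00699% of genes were called, and 1 had an unadjusted p under 0.05. The lowest FDR of a member was 0.655 in the first and 0.871 in the second, and DESeq2 and the fit with the replicate block called 0 in each as well. Among well recovered mRNAs the change with TM7nox was 0.29 for Pan3 (interval of 2 SE -0.14 to 0.72), 0.21 for Btg1 (-0.38 to 0.81) and 0.31 for Upf1 (-0.19 to 0.81). For Lsm6 it was 0.35 (-0.15 to 0.85) and for Btg2 0.11 (-0.54 to 0.77), both with intervals on either side of 0. Exosc2 had the smallest unadjusted p of the compound comparison, 0.00649 (log2 -0.66 ± 0.22, FDR 0.871). Pabpn1, with the largest ratio, had the widest of these intervals (0.18, -1.58 to 1.94).

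Other genes of RNA decay, 57 in all, were read in the same fits. They hold exosome cofactors, further nonsense-mediated decay factors, terminal uridylyl transferases, Argonaute proteins and proteins that bind AU-rich or stem-loop elements. In total RNA 56 were tested. With LPS+DMSO 16 rose and 14 fell (28.6% and 25%, against 20.2% and 21.7% of all genes). With TM7nox 5 were higher and 4 lower than with LPS+DMSO (8.93% and 7.14%, against 7.37% and 6.40% of all genes). Zc3h12a, the endonuclease Regnase-1 that cleaves cytokine mRNAs, rose from 3.78 to 8.27 CPM in DMSO to 132 to 152 CPM under LPS+DMSO (log2 4.54 ± 0.21, FDR 2.26e-09), more than any of the 54. Noct, a relative of the CCR4 nucleases, read 6.69 to 8.21 CPM in DMSO and 18.5 to 28 CPM under LPS+DMSO (log2 1.53 ± 0.16, FDR 2.92e-06). With TM7nox it was 8.84 to 11.5 CPM, below all LPS+DMSO libraries (log2 -1.13 ± 0.15, FDR 0.000242). Tnrc6b, which links Argonaute to CCR4-NOT, fell with LPS+DMSO (log2 -1.68 ± 0.25, FDR 8.6e-05). Zfp36l1, which brings CCR4-NOT to AU-rich mRNAs, was lower with TM7nox (log2 -1.40 ± 0.34, FDR 0.0147), and Ago3 was higher (log2 0.86 ± 0.15, FDR 0.0019). In RIP 55 of these genes were tested, and 15 rose and 9 fell with LPS+DMSO (27.3% and 16.4%, against 23.5% and 21.2% of all genes). With TM7nox 7 were higher and 4 lower than with LPS+DMSO (12.7% and 7.27%, against 8.64% and 7.61%). In DMSO, 30 of 56 were higher in RIP than in total RNA and 14 lower (53.6% and 25%, against 37.0% and 33.4%), with Rc3h2, the stem-loop binding protein Roquin-2, at log2 4.43.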

How the data were processed

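Total RNA, anti-HuR RIP and IgG recovery were sequenced in 12, 12 and 3 libraries, made with the SMART-Seq Stranded kit per the labels' protocols. The deposited file holds raw counts per gene, with no normalization. The submitters' processing notes name FastQC 0.11.9, STAR, HTSeq, DESeq2 and GRCm39, while the annotation release and strand setting were not given in the sources used here. Groups come from the labels.

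Tests used the quasi-likelihood F test of edgeR 4.0.16 under R 4.3.3 (two-sided, TMM scaling, filterByExpr with a minimum count of 10). P-values were adjusted by Benjamini-Hochberg over all genes tested, and all 54 members passed the filter in each fit. RNA and RIP libraries were fitted separately, RIP over RNA and its change in 1 fit of 24 libraries, and RIP against IgG with treatment as a term. CPM values are on 1 TMM scale over 27 libraries. SE is the log2 fold change divided by the square root of F. The scripts were tested on simulated data.

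Same-numbered libraries deviated together: 24 of 24 libraries correlated best with their own number, and the correlation was over 0.1 for every pair of groups in the RNA, RIP and RIP over RNA comparisons. For the LPS interaction it was not (lowest 0.0546). The main fits still left the replicate number out, since the labels do not say what shares a number. Their calls can therefore be fewer than those of a fit with the block. Replicates were no duplicates, since the lowest chi-square per gene was 38.0. Alternatives were DESeq2 1.42.0, its size factors, no count filter, the replicate block, replicate pairs and leaving out each library. Members, lists and tests were chosen with earlier results of these data known. Members given in every sample were the 8 largest called in the LPS and TM7nox comparisons of total RNA, the 4 largest in the others and 20 catalytic or defining members. Other members were named as examples after their values were seen. Of the gene identifiers, 93.2% matched GENCODE M39. U-rich stretches are printed for 7 members, and that of 1 of the 4 best recovered members is not reported here.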

Additional observations from a re-analysis of the deposited data

Results flagged for a closer look

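In groups of 4 libraries, a library was singled out when its gap to the nearest of the others passed Dixon's 95% critical value, which chance gives in about 1 of 20 groups. For 29 named members 174 groups were looked at and 10 stood out, close to the 8.7 that chance gives. Of the 10, 7 were replicate 1 of their group. Pabpn1 in RIP replicate 4 read 341 CPM in DMSO (others 58.8 to 101) and 499 CPM in LPS+TM7nox (others 69.0 to 113). In total RNA, DMSO replicate 1 was low for Ddx6, at 59.6 CPM (others 85.4 to 89.6), and for Cnot8, at 39.0 CPM (others 47.2 to 48.1). LPS+DMSO replicate 1 was low for Smg1, at 177 CPM (others 192 to 194), and for Cnot1, at 137 CPM (others 160 to 162), and it was high for Exosc7, at 17.4 CPM (others 9.38 to 10.2). LPS+TM7nox replicate 1 was low for Pabpc1, at 1860 CPM (others 2280 to 2350), and replicate 4 was high for Pnrc1, at 51.7 CPM (others 38.5 to 40.7). In RIP, LPS+TM7nox replicate 1 was high for Lsm6, at 66.4 CPM (others 41 to 43.4).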

How the results depend on the processing

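None of the 4424 values of called members under the alternatives changed sign, and 377 of them no longer passed the threshold. Depth limits members with few counts, such as Pabpn1 in total RNA. Counts of called members moved by over 1.5 times in 6 comparisons. Counts are out of 54, with the share of all genes called under the same setting in brackets. With replicates 1 and 2 only, 4 in place of 27 were called for RNA LPS+DMSO against DMSO (13.4%), 0 in place of 5 for RNA LPS+TM7nox against LPS+DMSO (1.35%) and 6 in place of 32 for RNA LPS+TM7nox against DMSO (18%). The RIP counts were 5 in place of 19 for LPS+DMSO against DMSO (24%), 0 in place of 4 for LPS+TM7nox against LPS+DMSO (5.59%) and 13 in place of 23 for LPS+TM7nox against DMSO (31.9%). With replicates 3 and 4 only, RNA LPS+TM7nox against LPS+DMSO gave 13 (27.9%) and the same RIP comparison gave 1 (7.87%). DESeq2 gave 9 (18.5%) for RNA LPS+TM7nox against LPS+DMSO. The replicate block gave 12 in RNA (25%) and 15 in RIP (33.6%) for LPS+TM7nox against LPS+DMSO, and it lost no call of the fit without the block. Leaving out each library gave 10 to 19 members for RIP LPS+DMSO against DMSO and 1 to 5 for RIP LPS+TM7nox against LPS+DMSO. The ranges were 21 to 31 and 4 to 5 for the same RNA comparisons. Fewer libraries were tested in the fits of replicate pairs. The causes of the other shifts were not tested.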
